A study of Mus musculus with 4 samples.

Results

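The miRNAs described here belong to the families miR-297, miR-466, miR-467 and miR-669, the repeat-rich families encoded mainly by a hairpin array in an intron of the mouse gene Sfmbt2. They were chosen by family number alone, ignoring the letter, the copy suffix and the arm, and the choice gave 57 of the 942 mature miRNAs in the deposited small RNA table: 5 of miR-297, 23 of miR-466, 10 of miR-467 and 19 of miR-669. Small RNA was sequenced from the brain cortex of 4 mice of 9 months of age, all of strain B6C3. WT1 and WT2 were wild type, and APP3 and APP4, called AD mice here, carried the APPswe and PS1ΔE9 transgenes, a mutant chimeric amyloid precursor protein and a mutant human presenilin directed to neurons of the central nervous system. The mice formed 2 sibling pairs, group 1 (WT1 with APP4) and group 2 (WT2 with APP3), so that each genotype is represented by 2 animals and each library by 1 animal. The comparison asks whether the level of a miRNA differs between AD and WT cortex.

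Sfmbt2 encodes a Polycomb group protein and is an imprinted gene, expressed from the paternal copy in early embryo and placenta. Its large intron holds, in mouse and rat, a tandem array of miRNA hairpins that lie within simple repeats of CA and TG type. A hairpin yields a 5p and a 3p strand, of which one is usually kept, and the seed, the stretch near the 5′ end of the kept strand, decides most of what the miRNA pairs with. Because copies of these hairpins are nearly identical, a read can match several of them, and the table joins such copies in 1 entry. The division of reads among near-identical members is therefore uncertain throughout.

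For some miRNAs of these families outside the Sfmbt2 array, the repeat character can be read from the mature sequences. RefSeq (GRCm38.p6) gave a sequence for 754 of the 942 miRNAs of the table and for 2 of the 57 members, miR-466q and miR-466i-3p. These are shown 5′ to 3′ because 1 of them was called between siblings and the other shares its values with its opposite arm, and the seed, bases 2 to 8, is in capitals.
miR-466q: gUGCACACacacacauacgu
miR-466i-3p: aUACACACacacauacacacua
The first lies on the plus strand at chr3:28419988-28420007 and the second on the plus strand at chr13:17747552-17747573, both outside Sfmbt2. The seeds differ, and neither was shared with another miRNA of the table that had a sequence. RefSeq also holds 6 miRNAs of the same numbers that have no entry in the table used here, and a CA-rich and a TG-rich example show both kinds of repeat.
miR-467f: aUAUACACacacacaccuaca
miR-466k: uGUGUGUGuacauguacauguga
Read on the strand given, with matches allowed to overlap, CACACACA was present in 4 of the 1679 mature sequences of RefSeq (0.238%), and all 4 were among the 8 sequences of these families. The complementary run UGUGUGUG was present in 7 of the 1679 (0.417%), 2 of them in the families. All 8 family sequences lie on chromosomes other than that of Sfmbt2, so these counts do not cover the members of the array.

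In the GENCODE vM21 annotation of GRCm38, Sfmbt2 lies on the plus strand at chr2:10370510-10595253. The 57 members named 71 precursors, of which 66 lay inside Sfmbt2, 3 outside, and 2 (mir-466a and mir-297a-1) had no match in the annotation. All 66 lay in intron 10 of 22 of the transcript Sfmbt2-201, within a stretch of 51617 bases at chr2:10466663-10518279, and none overlapped an Sfmbt2 exon. The array has a regular period: the 11 hairpins of mir-467a and mir-467b were separated by 10 steps, 9 of which measured between 2413 and 2470 bases and 1 measured 4880 bases. Of the members, 50 had every hairpin inside Sfmbt2, and no miRNA of the table outside the 4 families had a hairpin there. The annotation itself holds 119 miRNA genes inside Sfmbt2, 71 of them with a Mir name, so the locus has more than the members name. The 4 members with a hairpin elsewhere were miR-466q (chr3:28419943-28420018, within Tnik on its strand), miR-466i-5p and miR-466i-3p (chr13:17747473-17747593, within Cdk13 on the opposite strand) and miR-466f (chr13:71107089-71107209). miR-297a-5p named 3 hairpins inside Sfmbt2 and the unmatched mir-297a-1, and the 2 arms of miR-466a were not placed. The array is the source of nearly all the reads as annotated, since members with hairpins inside Sfmbt2 took 97.0% to 98.0% of the members' reads in the 4 libraries.

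The members were low in cortex. Levels are given as reads per 1000000 miRNA reads of the library (RPM), and a mature miRNA is read whole, so that no correction for length is needed. The most abundant member, miR-467a-5p, had a mean of 8.11 RPM and ranked 385th in the table. The median of the members' mean levels was 0.258 RPM, against 3.65 RPM for the other 885 miRNAs. Only 12 members reached a mean of 1 RPM. All 57 had at least 1 read in some library, 37 had one in each of the 4 libraries (64.9%, against 81.7% of the other miRNAs), 9 in 3, 7 in 2 and 4 in 1 library. In 33 members no library held 10 reads, and such counts resolve large differences at most.

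Depth was high. The libraries held 19048747 to 26085776 miRNA reads, and 3 reads, the limit that a count of 0 allows, correspond to 0.115 to 0.157 RPM. The summed level of 5 brain miRNAs, miR-124-3p and miR-9-5p among them, was 73540 to 81200 RPM. Markers of oligodendrocytes summed to 1368 to 1742 RPM, of microglia and leukocytes to 1125 to 1313 RPM, of erythroid cells to 3206 to 4626 RPM, and of choroid plexus to 2934 to 4396 RPM. Muscle (95.2 to 122.5 RPM), liver (0.940 to 4.45 RPM) and pituitary markers (239 to 427 RPM) were lower, and the miR-290 and miR-302 families of embryo and placenta were at or near 0 (0 to 0.263 RPM over the 3 of 8 found). The library of APP4 stood apart in 8 miRNAs of the miR-200 and miR-183 clusters, epithelial and sensory markers, which summed to 5862 RPM there and to 576 to 1024 RPM in the other 3 libraries. Their part in the values of APP4 below was not tested. In bulk cortex, fewer cells of a type and less RNA per cell cannot be told apart.

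Lists of 4 values follow the order WT1, WT2, APP3 and APP4 from here on. Together the members took 1182, 1177, 985 and 948 reads, or 45.3, 53.3, 46.3 and 49.8 RPM. The highest library, WT2, exceeded the lowest, WT1, by 1.18-fold, and on this scale the AD mice lay between the 2 WT mice. The mean was 49.3 ± 5.66 RPM (SD, n = 2) in WT and 48.0 ± 2.44 RPM (SD, n = 2) in AD mice. Between siblings the summed level changed by 0.14 on the log2 scale in group 1 and by -0.20 in group 2, while the 2 WT mice differed by 0.23 and the 2 AD mice by 0.10. The direction in group 1 and the order of the mice depended on the scaling. With TMM factors, which centre most miRNAs on no change, the value of group 1 was -0.05 on the log2 scale. The summed levels were then 47.7, 54.5, 46.4 and 46.2 RPM, so that both AD mice lay just below WT1, the lower WT mouse.

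miR-467 and miR-669 made up most of the signal. miR-467 was the largest family, with 561, 522, 477 and 438 reads, or 21.5, 23.6, 22.4 and 23.0 RPM. It took 44.4% to 48.4% of the members' reads. miR-669 followed with 15.8, 19.8, 15.6 and 16.8 RPM, the WT2 value being the highest. miR-466, with the most members, reached 6.79, 9.01, 7.85 and 8.35 RPM. miR-297 was lowest and varied most, with 33, 19, 9 and 32 reads, or 1.27, 0.861, 0.423 and 1.68 RPM. In none of the 4 families did both AD mice lie on one side of both WT mice.

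**Figure D1:**
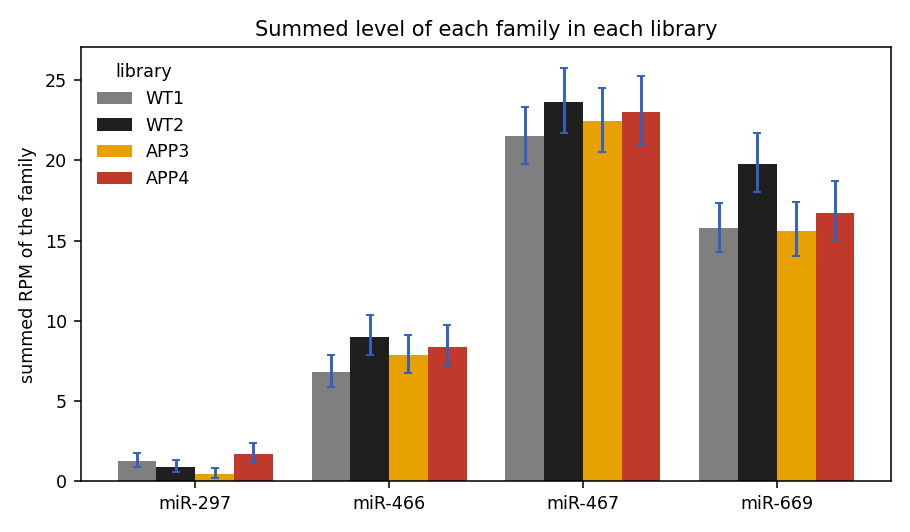
Summed level (RPM, reads per 1000000 miRNA reads) of each of the 4 families in each library. Bars start at 0 and show 1 mouse each, and the lines are Wilson 95% intervals that cover counting error only. miR-467 stood at 21.5 to 23.6 RPM in the 4 libraries, and the bars of AD and WT mice interleave in every family. Levels are without TMM factors, and the order of the bars was not examined with them.

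A few members carried most of the reads. The 3 highest took 42.7% to 46.3% of the members' reads in each library, and the 10 highest took 72.1% to 73.8%. The leading pair, miR-467a-5p and miR-669c-5p, was even across mice. miR-467a-5p had 201, 193, 177 and 146 reads, or 7.71, 8.74, 8.32 and 7.67 RPM. These reads were joined over 10 precursors, which is 17.9 reads a precursor as a mean over libraries. miR-669c-5p, with the single hairpin chr2:10509296-10509404, had 204, 193, 163 and 151 reads, or 7.82, 8.74, 7.66 and 7.93 RPM. It was the highest of the members with a single hairpin. Highest and lowest library differed by 1.14-fold in both members, and AD and WT levels overlapped.

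miR-467d-5p (hairpin chr2:10507630-10507714) followed, with 107, 117, 116 and 120 reads, or 4.10, 5.30, 5.45 and 6.30 RPM. Both AD mice lay above both WT mice, but APP3 exceeded WT2 by less than the WT mice differed from each other. miR-467e-5p (chr2:10505721-10505807) had 83, 59, 55 and 48 reads, or 3.18, 2.67, 2.59 and 2.52 RPM, so that both AD mice lay just below WT2. miR-467d-3p, from the other arm of the miR-467d hairpin, had 2.61, 2.22, 2.07 and 2.57 RPM, with AD and WT overlapping. miR-467c-5p (chr2:10473931-10474027) had 1.53, 1.86, 1.22 and 1.94 RPM, with an AD mouse at each end. miR-467a-3p, again of 10 joined precursors, had 1.46, 1.99, 1.65 and 1.10 RPM, and APP4 was lowest.

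In the miR-669 family, miR-669a is joined over 12 precursors for the 5p and 11 for the 3p strand. miR-669a-5p had 49, 56, 29 and 27 reads, or 1.88, 2.54, 1.36 and 1.42 RPM. Both AD mice lay below both WT mice, and the highest and lowest library differed by 1.86-fold. miR-669a-3p had 47, 66, 51 and 50 reads, or 1.80, 2.99, 2.40 and 2.63 RPM, with both AD mice between the 2 WT mice. miR-669o-5p (chr2:10514300-10514395) had 22, 26, 14 and 15 reads, or 0.843, 1.18, 0.658 and 0.788 RPM, again with AD below WT.

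The highest member of miR-466 was miR-466g (chr2:10514595-10514674), for which the table names no arm, with 35, 39, 27 and 34 reads, or 1.34, 1.77, 1.27 and 1.79 RPM. The highest of miR-297 was miR-297a-3p with 14, 7, 3 and 14 reads. WT1 and APP4, which are siblings, held equal numbers there, and the 4 libraries differed by 5.21-fold. Some neighbours in the order of mean level were not separated by counting error. The intervals of miR-669a-3p, miR-467d-3p and miR-467e-5p overlapped in WT2, APP3 and APP4. In WT1 those of miR-467e-5p (2.567 to 3.944 RPM) and miR-669a-3p (1.355 to 2.396 RPM) did not overlap.

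**Figure D2:**
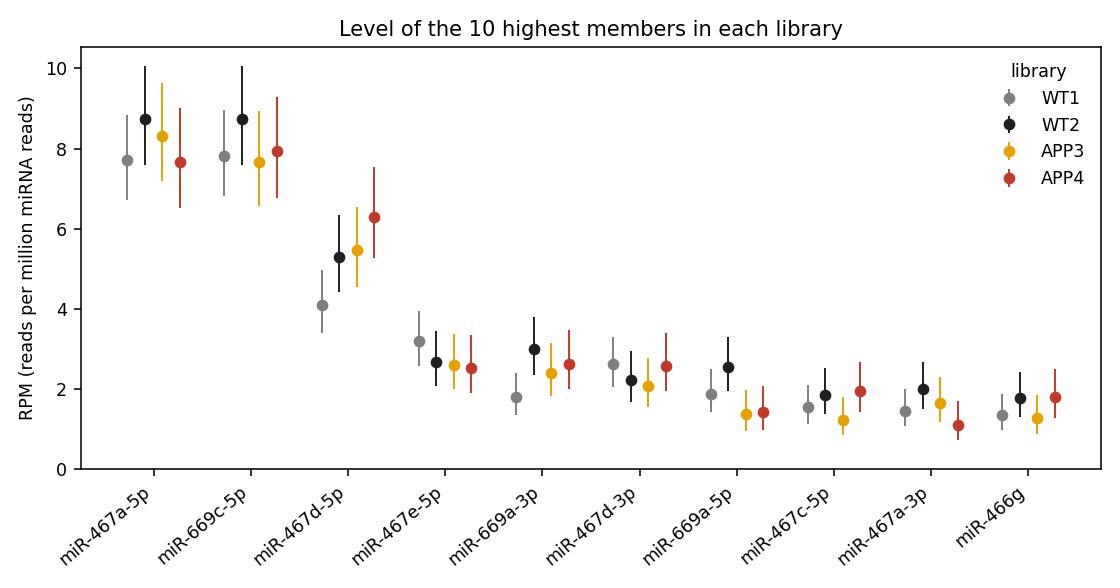
Level in RPM of the 10 members with the highest mean, 1 point per mouse, with Wilson 95% intervals for counting error only. The first 2 members lie between 7.66 and 8.74 RPM in all 4 libraries, miR-467d-5p spans 4.10 to 6.30 RPM, and the other 7 stay at or below 3.18 RPM.

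Levels were not even along the array. Of the 36 members with a single hairpin inside Sfmbt2, 15 lay within 14.59 kb of the first hairpin and 21 lay at 39.06 kb or beyond. Between them stood 26 hairpins, all of members with several copies, whose reads could not be assigned to a place. In the upstream stretch miR-467c-5p alone reached a mean of 1 RPM, against 6 members in the downstream stretch (miR-467e-5p, miR-467d-5p, miR-467d-3p, miR-669c-5p, miR-466d-3p and miR-466g). The upstream members summed to 4.68, 5.53, 4.28 and 5.62 RPM and the downstream members to 23.4, 25.8, 23.2 and 25.5 RPM. The difference had the same direction in all 4 mice. It is a description of annotated members, since copies elsewhere in the array can contribute reads.

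**Figure D3:**
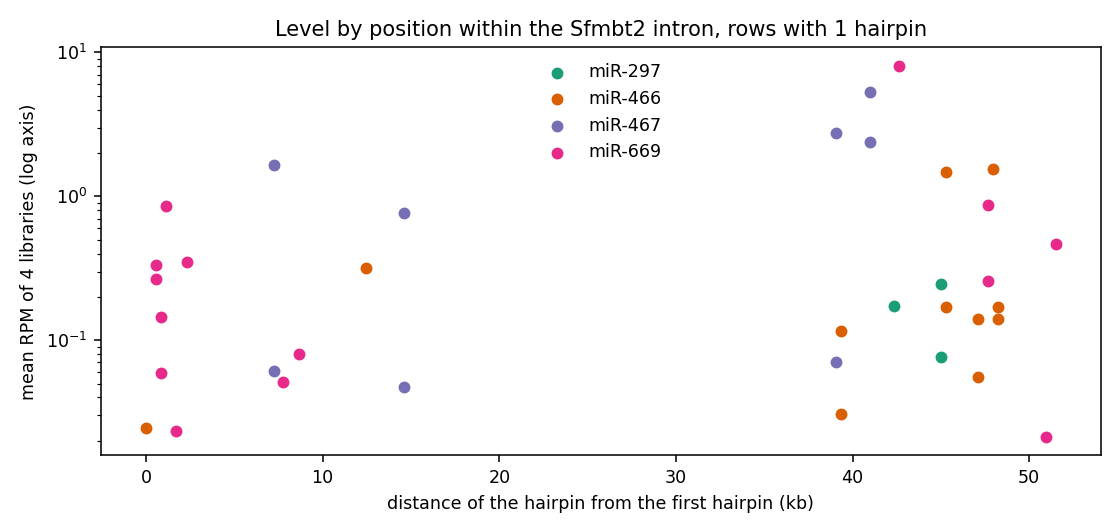
Mean level over the 4 libraries (RPM, log axis) of the 36 members with 1 hairpin inside Sfmbt2, against the distance of that hairpin from the first one (kb). Each point is 1 member, coloured by family. Points above 1 RPM number 1 up to 14.59 kb and 6 from 39.06 kb on.

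The preferred arm differed between families. Both arms were listed for 21 hairpin names. In miR-467 the 5p strand was the more abundant in 5 of 5 names and in all 20 comparisons of a name within a library. Its share of the reads of these pairs was 81.1%, 81.2%, 82.2% and 83.1%, so that the mice differed little. miR-467d was the most balanced, with a 5p share of 61.1% (Wilson 95% interval 53.8% to 68.1%), 70.5% (63.1% to 76.9%), 72.5% (65.1% to 78.8%) and 71.0% (63.8% to 77.3%). miR-467e, by contrast, had 245 reads of 5p and 6 of 3p over the 4 libraries.

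In miR-466 the 3p strand was the more abundant in 7 of 9 names, the 5p strand in 1 (miR-466n), and the arms of miR-466i were equal. Within libraries the 3p strand led in 23 of 36 comparisons and the 5p strand in 7. Among the 7 names, miR-466c (28 reads of 5p and 30 of 3p) and miR-466h (13 and 15) were near equal. The 5p share of these pairs was 17.4%, 19.01%, 25.2% and 18.4%. In miR-297 the 3p strand led in 2 of 2 names and in 8 of 8 comparisons within a library. miR-669 was mixed, with the 5p strand ahead in 3 of 5 names and a 5p share of 63.6%, 55.9%, 47.7% and 48.0%. miR-669a held most of the reads of these pairs. Its 5p share was 51.0% (41.2% to 60.8%), 45.9% (37.3% to 54.7%), 36.3% (26.6% to 47.2%) and 35.1% (25.4% to 46.2%), and the intervals of all 4 libraries overlapped. Over all members the 5p strand took 71.2%, 68.1%, 69.95% and 67.8% of the reads.

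**Figure D4:**
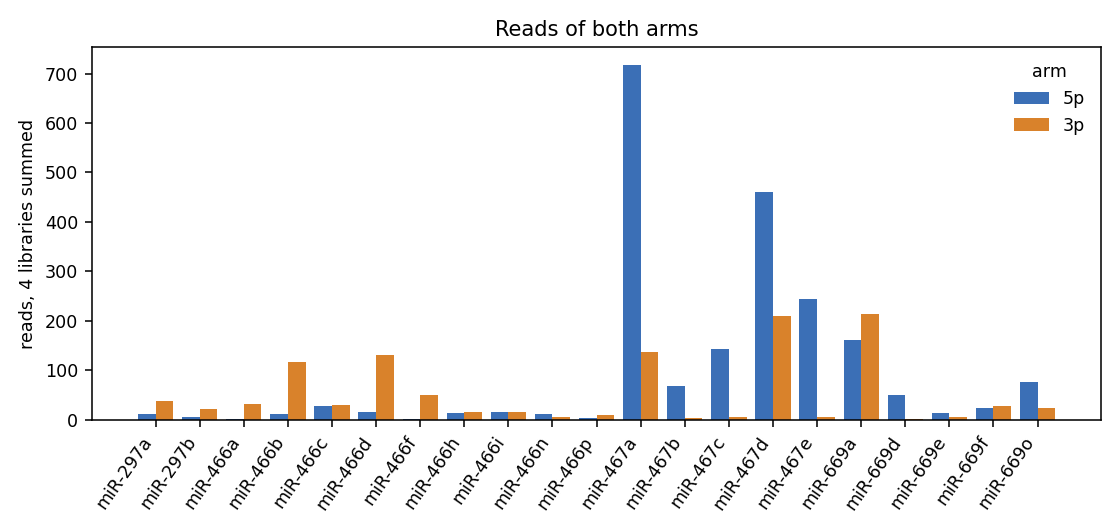
Reads of the 5p and 3p strands summed over the 4 libraries, for the 21 hairpin names with both arms in the table. Bars start at 0. The 5p bar is the taller for all 5 miR-467 names, and the 3p bar is the taller for 7 of the 9 miR-466 names and both miR-297 names. In miR-466c and miR-466h the bars are near equal.

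Siblings were compared by Fisher's exact test on the reads of the 2 libraries, two-sided, with Benjamini-Hochberg adjustment over all miRNAs that had a read in either (FDR). Calls needed an FDR below 0.05 together with a change of at least 1.5-fold. Such a test compares 2 libraries, not genotypes, and reads without molecular identifiers are not independent molecules, so that it covers counting error only. For log2 fold changes 0.5 read was added to each count, and their SE is a counting error. Because the libraries differ in size, the added read pulls the values of low miRNAs toward that of equal counts. That value was 0.45 in group 1 and 0.05 in group 2.

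In group 1, APP4 exceeded WT1 in 3 of the 53 members tested (5.66%), and no member was called lower. The same rule called 11.6% of all miRNAs in this pair, 9.68% higher and 1.89% lower, so that the members' share was below that of the table. Fewer reads give a larger p for the same change, and most members had few reads. Shares were not compared at equal read number, here or in the comparisons below. miR-467d-5p rose by 0.62 on the log2 scale (SE 0.19, Fisher's exact test FDR = 0.00378), from 107 to 120 reads in a smaller library. miR-466q, with 2 reads in WT1 and 9 in APP4, had a ratio of levels of 6.16 (exact 95% interval 1.28 to 58.6, FDR = 0.0300). miR-669f-3p (hairpin chr2:10467229-10467349), named after its values were seen, had 1 read in WT1 and 9 in APP4, a ratio of 12.3 (interval 1.71 to 540.2, FDR = 0.00752). WT1 held the lowest of the 4 levels in all 3. miR-466q had 0.0767 RPM in WT1 and 0.362, 0.470 and 0.473 RPM in WT2, APP3 and APP4, and miR-669f-3p had 0.0383 RPM in WT1 and 0.544, 0.282 and 0.473 RPM in the others.

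Scaling mattered in this pair. TMM factors lowered every log2 fold change of group 1 by 0.18, against shifts of -0.03 in group 2, -0.04 between WT mice and -0.11 between AD mice. They turned the split of all calls in group 1 from 87 higher and 17 lower to 46 higher and 36 lower. Under them miR-467d-5p (0.44, FDR = 0.0622) and miR-466q (2.20, FDR = 0.0749) were no longer called, and miR-669f-3p still was. miR-669e-5p, with 8 reads in WT1 and none in APP4, was called lower under them. In RPM without TMM factors it was at least 1.95-fold lower, taking 3 reads as the floor in APP4.

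In group 2, 1 of 57 members was called (1.75%), against 6.81% of all miRNAs (3.35% higher and 3.46% lower). miR-669a-5p fell by 0.88 on the log2 scale (SE 0.33, Fisher's exact test FDR = 0.0203), from 56 reads in WT2 to 29 in APP3. In group 1 the same member went from 49 to 27 reads, a log2 change of -0.39 (FDR = 0.419). Whether the 2 pairs differ here was not tested. miR-467d-5p, called in group 1, changed by 0.04 in group 2, and miR-466q by 0.36 (FDR = 0.811). No member was called in both pairs.

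The leading members moved little in either pair. miR-467a-5p changed by -0.01 on the log2 scale in group 1 and -0.07 in group 2, and miR-669c-5p by 0.02 and -0.19, the first of which became -0.16 with TMM factors. At their depth a rise of 1.27-fold or a fall of 1.32-fold in miR-467a-5p would have passed the FDR limit in group 1, whereas miR-466g needed a rise of 1.72-fold or a fall of 2.32-fold. miR-467e-5p changed by -0.33 and -0.05, miR-467d-3p by -0.02 and -0.10, and miR-467a-3p by -0.39 and -0.27. Values of opposite sign in the 2 pairs were found for miR-669a-3p (0.54 and -0.31), miR-467c-5p (0.34 and -0.59), miR-466g (0.41 and -0.47) and miR-297a-3p (0.45 and -1.05). None of these passed the test. miR-669o-5p changed by -0.08 and -0.82 (FDR = 0.191 in group 2).

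**Figure D5:**
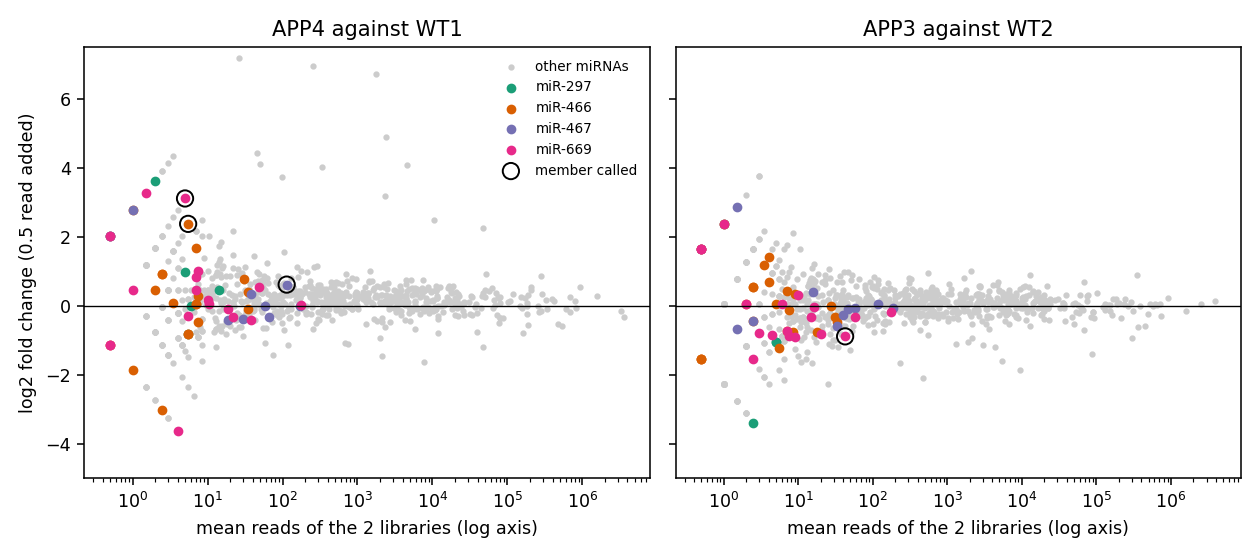
Log2 fold change (0.5 read added) of APP4 against WT1 and of APP3 against WT2, against the mean reads of both libraries (log axis). Grey points are other miRNAs, coloured points are members by family, and circled members were called: 3 above 0 in group 1 and 1 below 0 in group 2. Most members lie at the low-read end, where points fan out on both sides of 0.

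Over the members tested the median log2 fold change was 0.18 in group 1, against 0.21 over all miRNAs, and -0.13 in group 2, against 0.05. With counts of 0 set to the floor of 3 reads and miRNAs at or under that floor left out, the members' medians were 0.04 and -0.32 and those of all miRNAs 0.19 and 0.05. In group 1 33 members had a positive and 20 a negative value with 0.5 read added, and in group 2 24 and 33. The added read pulls low counts of group 1 toward 0.45, which favours positive values there. An unadjusted p under 0.05 was reached by 7 members (13.2%) in group 1, against 44.8% of all miRNAs, and by 1 member (1.75%) in group 2, against 39.7% of all miRNAs. Such shares depend on read number, which was lower in members (median mean level 0.258 RPM, against 3.65 RPM for the other miRNAs). They do not show that members were steadier than other miRNAs.

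Members were also called between mice of one genotype. Between WT2 and WT1 the same test called 5 of 51 members (9.80%), against 10.1% of all miRNAs (7.62% higher and 2.5% lower). miR-669f-3p (12 reads in WT2 against 1 in WT1, ratio 14.2, exact 95% interval 2.10 to 606.1) and miR-466f-3p (23 against 8 reads, ratio 3.40, interval 1.47 to 8.78) were higher in WT2, as was miR-669a-3p (66 against 47 reads, ratio 1.66, interval 1.12 to 2.47). miR-466b-5p was at least 1.97-fold higher in WT2, with 5 reads against 0, and miR-297a-5p at least 2.26-fold lower, with 0 reads against 8. Between APP4 and APP3, 2 of 55 members were called (3.64%), against 8.05% of all miRNAs (5.07% higher and 2.98% lower). Both belong to miR-297 and were higher in APP4. miR-297a-3p had 14 reads against 3 (ratio 5.21, interval 1.45 to 28.3), and miR-297c-3p had 6 against 0 (at least 2.23-fold). In all, 4 of the 57 members (7.02%) were called between siblings of different genotype, against 15.0% of all 942 miRNAs, and 10 (17.5%, against 22.8%) in at least 1 of the 4 comparisons, which share libraries with each other. The split of all calls moved with the scaling here too. WT2 against WT1 gave 67 higher and 22 lower, and 55 and 31 with TMM factors, and APP4 against APP3 gave 46 and 27, and 34 and 40 with TMM factors. Scaling to clean reads gave 88 and 15 in the former and 40 and 34 in the latter. Members named in this paragraph were, apart from miR-669a-3p and miR-297a-3p, singled out after their values were seen.

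With the 4 mice as replicates, AD against WT gave no call. edgeR's quasi-likelihood test kept 623 miRNAs, 21 members among them, and left out 36 members with too few reads. It called 0 of the 21 members and 0.0% of all miRNAs at an adjusted p under 0.05. An unadjusted p under 0.05 was reached by 1 member, against 5.78% of all miRNAs tested, and DESeq2 called none and gave no member an unadjusted p under 0.05. That member was miR-669a-5p, which was lower in AD mice in both pairs (log2 fold change -0.79, SE 0.29, adjusted p = 0.768 with edgeR). Leaving out each mouse in turn gave -0.96 to -0.58. Next came miR-669o-5p (-0.61, SE 0.38, edgeR adjusted p = 0.929) and miR-466q (1.02, SE 0.73, edgeR adjusted p = 0.929). Both values moved with single WT mice: miR-669o-5p gave -0.38 without WT2, and miR-466q gave 0.28 without WT1 and 2.39 without WT2.

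The other members had adjusted p-values up to 0.995 with edgeR. Log2 fold changes were positive in 5 and negative in 16 of the 21, with a median of -0.20 against -0.02 over all miRNAs tested. Without WT2 the split was 10 positive and 13 negative, with a median of -0.10 against 0.01, and without TMM factors the median was -0.06 against 0.11. The abundant members had the smallest errors: miR-669c-5p gave -0.22 (SE 0.19), miR-467a-5p -0.17 (SE 0.20) and miR-467d-5p 0.19 (SE 0.22). In RPM, both AD mice lay on one side of both WT mice in 8 of the 21, against 36.0% of all miRNAs tested. They were higher in 4 (miR-467d-5p, miR-466b-3p, miR-669h-5p and miR-466q), against 27.0% of all, and lower in 4 (miR-467e-5p, miR-669a-5p, miR-466d-3p and miR-669o-5p), against 8.99% of all. TMM factors, larger in both AD than in both WT libraries, would lower AD relative to WT levels. These shares were not counted with them.

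Other groups of miRNAs give a scale for these levels. The Mirg cluster, an imprinted array expressed in brain, had 73 miRNAs in the table with a median mean level of 22.2 RPM and summed to 37230 to 41070 RPM, and 7 of 72 of them were called in group 1 (9.72%) and 3 of 73 in group 2 (4.11%). The miR-344 family, a rodent family of several copies, had 14 miRNAs that summed to 694 to 908 RPM, with 0 of 14 called in group 1 and 1 of 12 in group 2.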

How the data were processed

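Small RNA libraries from the cortex of 2 WT and 2 AD mice were analysed. The authors deposited, for each mature miRNA and library, a whole-number read count and a scaled value. Per the study's methods, reads of 18 to 35 bases were matched to miRBase with Bowtie and CLC software; the build is given as GRCm38 there, while the submitters' processing notes list mm9 and CASAVA 1.8, and the RNA kit also differs between them. The scaled values were deposited as TPM and equal reads per 1000000 clean reads of each library, which is not the RPM used here. They served only to recover the totals of clean reads. The table holds no coordinates, so hairpins were placed by name in GENCODE vM21. All per-sample columns had a sample. Nothing states separate cages or extractions, so edgeR and DESeq2 p-values measure only the spread between these 4 mice, and those of Fisher's exact test counting error.

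Counts were scaled to the miRNA reads of each library. Library pairs were compared by Fisher's exact test (scipy 1.17.1), and the 4 mice by edgeR 4.0.16 (R 4.3.3) with filterByExpr, TMM and quasi-likelihood F-tests, with Benjamini-Hochberg adjustment over the whole table. DESeq2 1.42.0, other scalings, filters and leaving out each mouse served as alternatives. Same-numbered samples do not exist, and siblings are those that the study's methods name. Their deviations from the genotype means had r = 0.235 across 252 miRNAs of at least 50 RPM, without TMM factors, which was not tested. Siblings also had similar miRNA shares of clean reads (83.43% in WT1 and 83.36% in APP4, 88.65% in WT2 and 87.58% in APP3). Relatedness and library handling cannot be told apart. The sibling block was an alternative. Shares and levels have Wilson 95% intervals and ratios exact ones. Both tests were checked on simulated counts, and the outcome is not used as support here. For edgeR these counts had less spread between mice than the 24.0% (biological coefficient of variation) estimated in these data. The check therefore does not show what edgeR can detect here. Members and lists were chosen with earlier results of these data known. Named members are the 10 highest, the highest of each family, members called alike in both sibling pairs, the 3 called members with the largest change each way in a pair among those with at least 1 RPM in either library, and the 3 with the lowest edgeR p.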

Additional observations from a re-analysis of the deposited data

Results flagged for a closer look

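The summed level of the members had opposite signs in the 2 sibling pairs, 0.14 on the log2 scale for APP4 against WT1 and -0.20 for APP3 against WT2, while the 2 WT mice differed by 0.23. With TMM factors the first value was -0.05 and the signs were alike. miR-669f-3p, named after its values were seen, also changed in opposite directions, 3.12 for APP4 against WT1 and -0.89 for APP3 against WT2, on 1, 12, 6 and 9 reads in the 4 libraries. These differences between pairs were not tested.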

How the results depend on the processing

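The count of members called over 4 mice was 0 under each alternative fit, and leaving out each mouse gave 0 to 0. Over all miRNAs edgeR called 0, but 2 with the sibling pairs as a block, and 3 without WT1, 21 without APP3 and 5 without APP4. The block left miR-669a-5p at -0.79 (SE 0.29, edgeR adjusted p = 0.634) and changed no call of a member. Between siblings, members called in APP3 against WT2 fell from 1 to 0 at 2-fold, and to 0 when miRNAs of several precursors were left out. That omission also left 1 in WT2 against WT1 and 1 in APP4 against APP3. Over all miRNAs the calls of APP4 against WT1, APP3 against WT2, WT2 against WT1 and APP4 against APP3 numbered 104, 61, 89 and 73, and fell to 50, 23, 38 and 38 at 2-fold and to 53, 30, 40 and 40 with a minimum of 10 RPM. That minimum left no member, and merging identical mature sequences was not run because a sequence was held for 2 of 57 members. Log2 changes of APP4 against WT1 near 0 changed sign with 5 reads added, to 0.0055 for miR-467a-5p, 0.0186 for miR-467d-3p and 0.0206 for miR-669o-5p. The added reads pull every low count of this pair toward 0.45, so the direction of these shifts was fixed by the arithmetic. TMM factors changed the sign of miR-669c-5p, to -0.16. The summed level in WT1, WT2, APP3 and APP4 was 37.8, 47.3, 40.6 and 41.5 RPM per clean reads, 29.1, 32.4, 28.6 and 32.1 RPM without miRNAs of several precursors, and 37.6, 44.6, 38.0 and 42.1 RPM without the highest member. TMM factors gave 47.7, 54.5, 46.4 and 46.2 RPM, with both AD mice below both WT mice. Of 59 such counts and levels 42 stayed within their limits, and of 65 changes of named members 59 kept direction and call. In 4 of the 59 and 26 of the 65, the 5 added reads entered the fold change only, so the FDR was fixed in advance. Most named members were not called in the main fit, so few calls could be lost. Read depth limits the 33 members under 10 reads in every library, 2 mice a genotype limit the rest, and the cause of these changes was not tested.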

Other observations

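miR-466i-5p and miR-466i-3p, the 2 arms of 1 hairpin, had identical reads in the 4 libraries, 8, 2, 3 and 3. Of all miRNAs with at least 9 reads in total, 3 such pairs of identical entries were found. The others were miR-5617-5p with miR-3073a-3p (1, 1, 5 and 3 reads) and miR-5627-3p with miR-3082-5p (3, 4, 1 and 2 reads). How the reads of these entries were assigned is not given in the sources used here. miR-466q, miR-466i and miR-466f, whose hairpins lie outside Sfmbt2, are counted above with the families by number.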
